A study of Mus musculus with 8 samples.

Results

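Expression at 24 h was compared with expression at 12 h in mouse myotubes that had been given membrane particles shed by myogenic progenitor cells (MPCs), called extracellular vesicles (EVs). The features are the genes that averaged 1 FPKM or more over both times (FPKM being fragments per kilobase of transcript, scaled to the depth of the library), which were 10964 of the 35275 genes in the table, and these libraries are 4 of the 8 in the series. The last gene kept was Gm9625 (mean 1.00005 FPKM) and the first one left out was Arntl2 (0.999691 FPKM). The cells were primary MPCs of C57BL6/J mice with no genetic change named, grown into myotubes in a medium with horse serum. They then received MPC EVs for 12 h (MPC EV 12 h) or for 24 h (MPC EV 24 h), while control myotubes were given EVs of growth medium for the same times (control 12 h and control 24 h), with 2 libraries in each of the 4 groups. The labels give no age or sex of the mice, and neither untreated myotubes nor myotubes before the EVs were added are analysed here. Whether the libraries of 1 group stem from different cultures is not stated either. The p-values thus reflect how far these libraries spread, and that spread may be technical.

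Skeletal myoblasts leave the cell cycle, fuse through the membrane proteins myomaker and myomixer, and assemble sarcomeres from muscle-specific actins, myosins and troponins. Developing muscle first makes embryonic and slow myosin heavy chains, and transcription factors such as myogenin act early in this course. Genes of mitosis are held low in cells that have left the cycle, and a CCAAT box bound by the factor NF-Y and the cell cycle homology region are known elements of their promoters.

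The 2 MPC EV libraries of a time resembled each other closely, with a correlation across genes of 0.995 at 12 h and 0.992 at 24 h, and their depth came to between 16300000 and 18300000 fragments as estimated from the steps between low values. Control 12 h replicate 2 stood apart: it correlated at 0.947 with its partner, and its long transcripts of low GC content (989 genes in the top 25% by length and the bottom 25% by GC content) lay at a median of -1.03 (log2) against the other libraries. That library enters the comparison through the spread that all groups share, and the counts below are therefore also given without it. The same long transcripts moved by a median of -0.16 between 12 h and 24 h in MPC EV myotubes and 943 short ones of high GC content by 0.19, so an unequal change by length and GC content runs through the comparison. With both corrected for, 1079 genes rose and 608 fell, of which 871 and 490 were among the 1411 and 597 called without the correction. Mitochondrially encoded RNA made up 4.81% and 4.15% of all FPKM at 12 h and 2.09% and 2.65% at 24 h. The part of the mitochondrial share in the results was not tested. All 12 myotube markers passed the filter on low values, and their summed level was 19760 and 18420 FPKM at 12 h and 17340 and 15590 FPKM at 24 h. Endothelial markers summed to at most 4.30 FPKM and macrophage and leukocyte markers to at most 4.49 FPKM in any MPC EV library.

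Between 12 h and 24 h, 1411 genes rose (12.9% of the 10964 tested) and 597 fell (5.45%) in MPC EV myotubes, 18.3% in either direction, by limma on log2(FPKM + 0.5) with p-values adjusted after Benjamini and Hochberg and called under 0.05. Of these, 109 rose and 130 fell by more than 2-fold. Rises were the more frequent calls on the deposited scale (70.3%), but the split depended on scaling: with median-ratio scaling, which moves the median change of all genes from 0.09 to 0.00, 766 genes rose and 779 fell (49.6% of calls higher), and with quantile normalization 874 rose and 692 fell (55.8%). Both 24 h libraries lay above both 12 h libraries for 5146 genes (46.9%) and below both for 2605 (23.8%). Other fits call more or fewer genes than the main fit. Counts of a list in such a fit, as given below, are to be read against all genes called in that fit, not against 12.9% and 5.45%. Without control 12 h replicate 2, 2714 genes rose and 1416 fell. Without 1 of the MPC EV libraries, 227 to 414 rose and 202 to 243 fell, so single genes with small changes rest on all of these libraries.

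**Figure D1:**
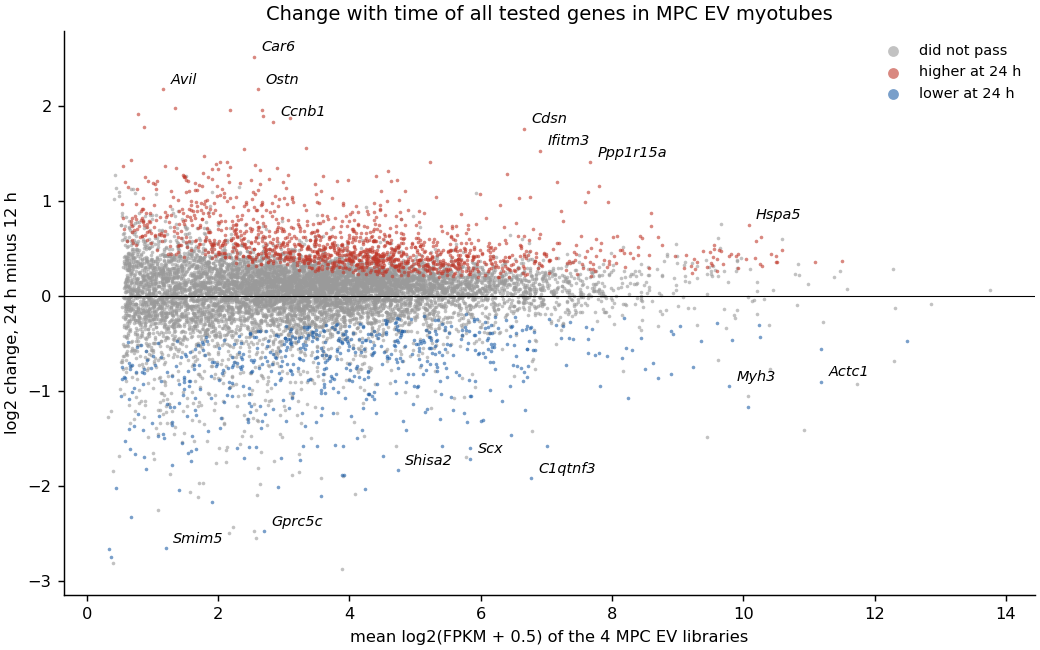
Change with time of the 10964 tested genes in MPC EV myotubes: the x axis gives the mean of log2(FPKM + 0.5) over the 4 MPC EV libraries and the y axis the log2 change, 24 h minus 12 h, with red points higher, blue points lower and grey points not past an adjusted p of 0.05. Rises outnumber falls (1411 and 597), while among changes of more than 2-fold the falls are more frequent (130 and 109).

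Among the genes that met the naming rule (a mean of at least 2 FPKM and libraries of the 2 times that do not overlap), Car6 had the largest rise on the log2(FPKM + 0.5) scale. It encodes a secreted carbonic anhydrase (ENSMUSG00000028972, chromosome 4, 150187015 to 150201332 in GRCm38). Car6 measured 1.80 and 2.12 FPKM at 12 h and 14.2 and 13.0 FPKM at 24 h, and both 24 h libraries were high. The mean rose 6.91-fold, a log2 change of 2.52 ± 0.16 (SE; adjusted p = 0.000882). Ostn, which encodes the secreted muscle and bone peptide osteocrin, or musclin (chromosome 16, 27307489 to 27351212), measured 2.48 and 2.26 FPKM at 12 h and 12.8 and 12.2 FPKM at 24 h, and rose by 2.18 ± 0.12 on the log2 scale (adjusted p = 0.000756). Both of its 24 h libraries stood about equally far above both 12 h libraries. Among abundant genes, Cdsn, encoding corneodesmosin, an adhesion protein of skin, went from 50.8 and 59.0 FPKM to 185 and 189 FPKM (1.76 ± 0.11, adjusted p = 0.000879). Ifitm3, encoding an interferon-induced membrane protein that restricts virus entry, measured 73.7 and 67.4 FPKM at 12 h and 214 and 195 FPKM at 24 h (1.53 ± 0.09, adjusted p = 0.000756). Its neighbour and close relative Ifitm6 rose by 1.98 ± 0.16 from an estimated 13 and 12 fragments at 12 h, and reads shared by these genes could be split between them. The other genes with the largest rises were Avil, an actin-regulating protein of the villin family, whose ratio of means was larger than that of Car6, at 7.68-fold (2.18 ± 0.14), Itpk1, an inositol phosphate kinase (1.95 ± 0.14), the teneurin gene Tenm4 (1.89 ± 0.14), Fam171b (1.87 ± 0.24), Sema5a, a semaphorin of axon guidance (1.54 ± 0.15), Nrip2 (1.48 ± 0.13), the protein kinase gene Pim1 (1.41 ± 0.14), and the cell cycle and stress genes Ccnb1, Cdc20 and Ppp1r15a described below.

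By the same rule and scale the largest fall was that of Smim5, encoding a small membrane protein (ENSMUSG00000048442, chromosome 11, 115899966 to 115906269). Smim5 measured 5.24 and 5.39 FPKM at 12 h and 0.440 and 0.400 FPKM at 24 h, with an estimated 12 fragments in each 24 h library, and the 2 times were far apart. Its mean was 12.7-fold higher at 12 h, a log2 change of -2.66 ± 0.19 (adjusted p = 0.00106). Gprc5c, an orphan G protein-coupled receptor gene, went from 15.3 and 14.6 FPKM to 2.04 and 2.52 FPKM (-2.48 ± 0.11, adjusted p = 0.000688), and both of its 24 h libraries were low. C1qtnf3, encoding a secreted protein of the C1q and TNF family, was the most abundant of the large falls, at 220.3 and 203 FPKM at 12 h and 55.0 and 56.1 FPKM at 24 h (-1.92 ± 0.06, adjusted p = 0.000330). Its 2 libraries of each time lay close together. Spry1, an inhibitor of growth factor receptor signalling that marks quiescent muscle stem cells, went from 15.9 and 13.4 to 3.18 and 3.31 FPKM (-2.01 ± 0.12, adjusted p = 0.000772). Scx, encoding scleraxis, a transcription factor of tendon cells, measured 110.2 and 97.5 FPKM at 12 h and 34.0 and 28.7 FPKM at 24 h (-1.71 ± 0.11, adjusted p = 0.000800). Both 24 h libraries of Spry1 and of Scx were low. Further genes of this set were Frmpd1 (-2.18 ± 0.13), Tceal7 (-2.10 ± 0.43), the actin-binding protein gene Ablim1 (-1.88 ± 0.08), Klhl30 (-1.88 ± 0.09), Shisa2 (-1.84 ± 0.07), the fibroblast growth factor gene Fgf5 (-1.78 ± 0.20), the transcription factor gene Foxo6 (-1.71 ± 0.11) and the integrin gene Itgb4 (-1.71 ± 0.09). The libraries do not keep strand, and 4 of the 30 genes with the largest changes share exonic bases with a gene on the opposite strand above 1 FPKM: Tceal7 with Bex1 (185 FPKM), Cdc20 with Elovl1 (36.4 FPKM), Avil with Tsfm (21.5 FPKM) and Nrip2 with Itfg2 (7.19 FPKM), so reads of such a pair cannot be told apart there. All 30 genes moved in the same direction between 12 h and 24 h in control myotubes. The call of Tceal7 was lost without any 1 of the 4 MPC EV libraries or of the 2 control 24 h libraries, that of Fam171b without MPC EV 12 h replicate 1 or MPC EV 24 h replicate 2, and that of Cdc20 without MPC EV 24 h replicate 1.

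Many sarcomere transcripts fell from 12 h to 24 h. Of 45 listed sarcomere genes 37 passed the filter on low values, of which 16 fell, against 5.45% of all tested genes, 0 rose and 21 did not pass the test, with a median log2 change of -0.44 against 0.09 over all tested genes. Myh3, the embryonic myosin heavy chain (chromosome 11, 67078300 to 67102291), measured 1231 and 1234 FPKM at 12 h and 686 and 589 FPKM at 24 h, so its mean was 1.93-fold higher at 12 h (-0.95 ± 0.11, adjusted p = 0.00325). Both 24 h libraries were well below both 12 h libraries. The slow myosin heavy chain Myh7 went from 82.0 and 83.2 FPKM to 43.1 and 36.1 FPKM (-1.06 ± 0.12, adjusted p = 0.00347). Myh1, the fast type IIx heavy chain, went from 146 and 147 FPKM to 59.4 and 47.1 FPKM (-1.46 ± 0.15, adjusted p = 0.00299). The myosin heavy chains are near-identical in parts, so their reads may be split among them. Actc1, the cardiac actin that embryonic muscle also makes, stood at 3276 and 3119 FPKM and then at 1823 and 1598 FPKM (-0.91 ± 0.12, adjusted p = 0.00615). Tcap, the titin cap protein of the Z-disc, fell by 0.81 ± 0.11 on the log2 scale, Actn2, the Z-disc actinin, by 0.76 ± 0.12, Tnnt1, the slow troponin T, by 0.55 ± 0.08, and Myom1, a protein of the M-line, by 0.61 ± 0.08 (adjusted p from 0.00552 to 0.00986). Exons of Myom1 overlap Myl12a (433 FPKM).

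The most abundant sarcomere transcript did not pass. Acta1, the skeletal muscle actin, measured 7815 and 7542 FPKM at 12 h and 7669 and 6804 FPKM at 24 h (-0.09 ± 0.11, adjusted p = 0.613), and the libraries of the 2 times overlapped. Titin (Ttn) showed -0.58 ± 0.47 (adjusted p = 0.431), with both 12 h libraries above both at 24 h but a wide spread in the control libraries, and it passed where control 12 h replicate 1 or 2 was left out. Creatine kinase (Ckm) and desmin (Des) showed -0.31 ± 0.15 and -0.20 ± 0.08 (adjusted p = 0.203 and 0.133). The adult fast myosins Myh2 and Myh4 were among the 8 listed genes below the filter. Between 3 and 10 sarcomere genes fell without 1 of the MPC EV libraries, and without control 12 h replicate 2, 21 fell and 3 rose.

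**Figure D2:**
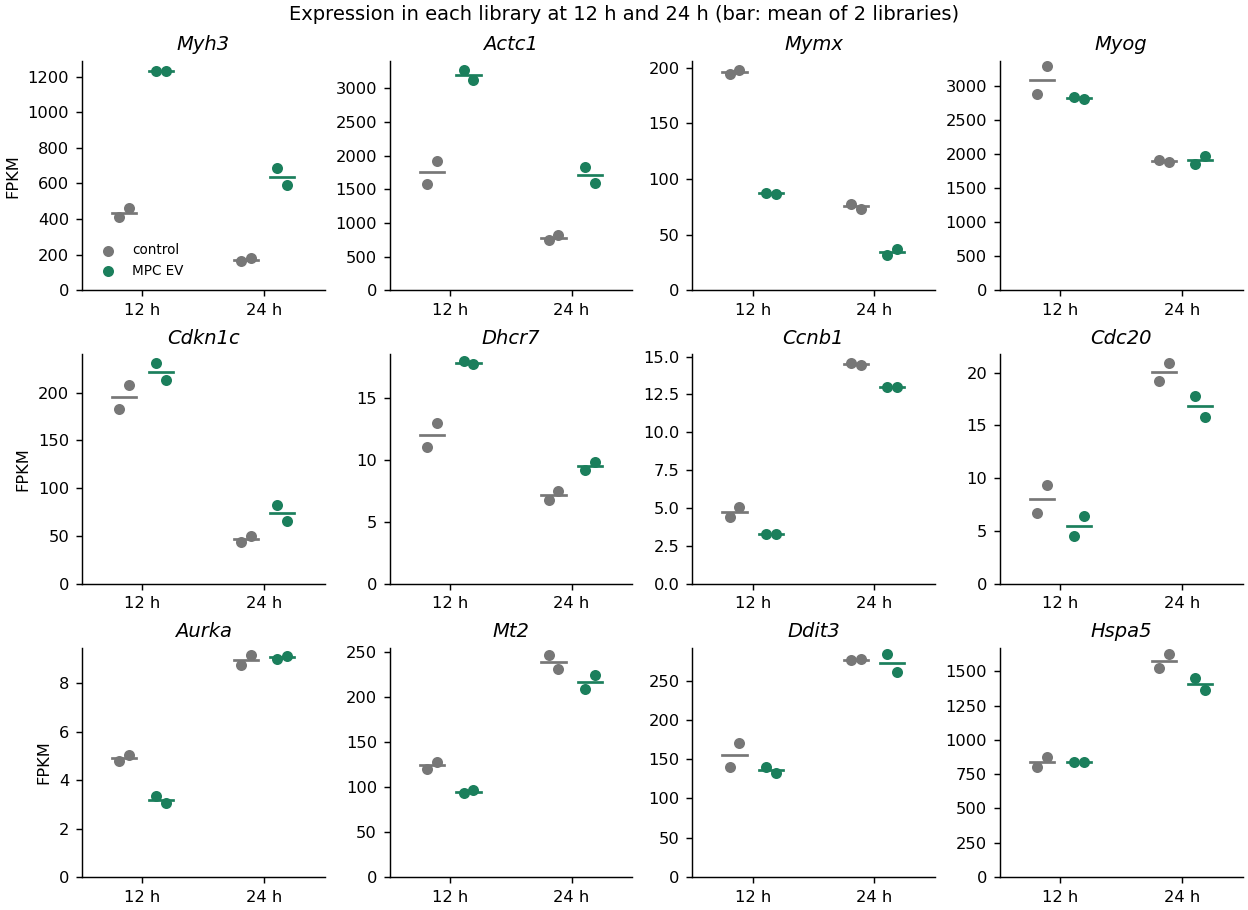
FPKM of 12 genes in each library at 12 h and 24 h, control myotubes in grey and MPC EV myotubes in green, with a point per library and a bar for the mean of 2 libraries. In MPC EV myotubes the first 6 genes (Myh3, Actc1, Mymx, Myog, Cdkn1c and Dhcr7) are lower in both 24 h libraries than in both 12 h libraries, and the last 6 (Ccnb1, Cdc20, Aurka, Mt2, Ddit3 and Hspa5) are higher.

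Regulators of differentiation and fusion fell in part. Of the 22 tested genes of that list 7 fell and 0 rose (median -0.31), against 5.45% and 12.9% of all tested genes. Mymx, which encodes the fusion protein myomixer, measured 87.7 and 86.4 FPKM at 12 h and 32.0 and 37.0 FPKM at 24 h, and its mean was 2.52-fold higher at 12 h (-1.33 ± 0.08, adjusted p = 0.000756). Mymk, encoding its partner myomaker, went from 698 and 699.7 to 591 and 538 FPKM and did not pass (-0.31 ± 0.08, adjusted p = 0.0505), although both 24 h libraries were lower. Myog, the transcription factor myogenin, stood at 2828 and 2799 FPKM and then at 1851 and 1963 FPKM (-0.56 ± 0.09, adjusted p = 0.00939). Myod1, which commits cells to the muscle lineage, fell by 0.40 ± 0.06 (adjusted p = 0.0105). The adhesion genes Cdh15, encoding M-cadherin, and Jam2 fell by 0.73 ± 0.07 and 1.10 ± 0.10 (adjusted p = 0.00208 and 0.00226). The inhibitor of bHLH factors Id1 also fell, from 85.2 and 89.2 to 56.0 and 60.2 FPKM (-0.58 ± 0.07, adjusted p = 0.00344). Mef2c did not pass (-0.56 ± 0.51, adjusted p = 0.491), although both 24 h libraries (60.4 and 70.7 FPKM) were below both at 12 h (99.3 and 93.3 FPKM). Its 2 control 12 h libraries differ widely, at 42.2 and 12.0 FPKM, and enter the shared spread. In bulk RNA, fewer cells of a type and less RNA per cell cannot be told apart. Each fit without 1 of the MPC EV libraries kept 4 falls in this list, and neither Myog nor Myod1 was among them in any of these 4 fits.

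Some genes of the neuromuscular junction and of the calcium machinery fell. Over all tested genes 5.45% fell and 12.9% rose. Of 13 tested junction genes 6 fell and 0 rose (median -0.33): Lrp4, the agrin receptor, went from 25.7 and 29.5 to 12.8 and 13.6 FPKM (-1.03 ± 0.10, adjusted p = 0.00266), and both 24 h libraries were low. The neuregulin receptor gene Erbb3 fell by 0.85 ± 0.11, Dok7, which activates the kinase MuSK, by 0.56 ± 0.06, and Prkar1a, a regulatory subunit of protein kinase A, by 0.62 ± 0.06 on the log2 scale (adjusted p = 0.00566, 0.00337 and 0.00237). Chrna1, the alpha subunit of the acetylcholine receptor, did not pass (-0.15 ± 0.06, adjusted p = 0.155). Colq, which anchors acetylcholinesterase, was below the filter, at 0.886 and 0.666 FPKM at 12 h and 0.128 and 0.174 FPKM at 24 h. Of 21 tested genes of excitation-contraction coupling and calcium handling 6 fell and 2 rose (median -0.15). Cav3, encoding caveolin-3 of the muscle membrane, measured 86.0 and 78.1 FPKM at 12 h and 48.0 and 40.1 FPKM at 24 h (-0.89 ± 0.12, adjusted p = 0.00654), while Cacnb1, the calcium channel beta subunit of muscle, measured 97.0 and 94.0 FPKM at 12 h and 147 and 144 FPKM at 24 h (0.61 ± 0.09, adjusted p = 0.00774). Their 24 h libraries lay on opposite sides of the 12 h libraries. The muscle sodium channel Scn4a fell by 0.98 ± 0.15, the calsequestrin gene Casq1 by 0.74 ± 0.16 and the store-operated calcium channel gene Orai1 by 0.41 ± 0.08 (adjusted p = 0.00954, 0.0279 and 0.0218). Omitting 1 of the MPC EV libraries left 3 to 4 falls among junction genes and 0 to 2 among calcium genes. Of the 15 tested stretch-responsive and Z-disc signalling genes 3 fell and 2 rose (median 0.09; 1 to 3 fell and 0 rose without 1 MPC EV library), led by Synpo2, encoding the actin-binding protein myopodin, at -1.41 ± 0.10 (adjusted p = 0.00101).

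Most genes of mitosis rose. Of 32 listed genes of mitosis and G2/M 28 passed the filter, of which 21 rose, against 12.9% of all tested genes, and 0 fell, with a median log2 change of 0.96. Ccnb1, encoding cyclin B1, the partner of the mitotic kinase (chromosome 13, 100778650 to 100786570), measured 3.29 and 3.29 FPKM at 12 h and 13.0 and 13.0 FPKM at 24 h, a 3.95-fold rise of the mean (1.83 ± 0.09, adjusted p = 0.000688). The libraries of each time were almost equal and the times did not overlap. Cdc20, which activates the ubiquitin ligase that ends mitosis, measured 4.54 and 6.39 FPKM at 12 h and 17.8 and 15.8 FPKM at 24 h (1.55 ± 0.20, adjusted p = 0.00530). Aurka, the Aurora A kinase of the spindle poles, measured 3.33 and 3.03 FPKM at 12 h and 9.004 and 9.13 FPKM at 24 h (1.38 ± 0.09, adjusted p = 0.000800). All of these were high in both 24 h libraries. Ube2c, the ubiquitin-conjugating enzyme that works with Cdc20, showed 1.35 ± 0.12, Bub1b, a spindle checkpoint kinase, 1.35 ± 0.10, Plk1, Polo-like kinase 1, 1.23 ± 0.13, Tpx2, a spindle assembly factor, 1.11 ± 0.08, and Cdk1, the mitotic kinase itself, 1.02 ± 0.08 (adjusted p from 0.00119 to 0.00306). Levels stayed modest: the 32 genes summed to 86.1 and 92.9 FPKM at 12 h and to 193 and 204 FPKM at 24 h. The proliferation antigen gene Mki67 did not pass, with 2.16 and 2.67 FPKM at 12 h and 0.651 and 1.74 FPKM at 24 h (-0.85 ± 0.79, adjusted p = 0.494), and neither did the topoisomerase gene Top2a (0.85 ± 0.52, adjusted p = 0.304). Both are long transcripts whose 2 control 12 h libraries differ widely, at 3.16 and 0.14 FPKM for Mki67 and 11.7 and 3.03 FPKM for Top2a. In MPC EV myotubes both 24 h libraries lay above both 12 h libraries for Top2a and below them for Mki67. The progenitor genes Pax7 (0.30 ± 0.14, adjusted p = 0.192) and Myf5 (0.43 ± 0.16, adjusted p = 0.119) did not pass. Both 24 h libraries were higher for each, as for 46.9% of all tested genes. Of the 12 tested progenitor markers 5 were higher and 6 lower in both 24 h libraries (median -0.12). Between 12 and 17 mitosis genes rose without 1 of the MPC EV libraries, 26 without control 12 h replicate 2, and 21 under either other scaling.

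Promoter sequences are shown for 4 of the mitosis genes that rose, because most of the list rose and promoters of such genes have known elements. They are from RefSeq on GRCm38.p6, 150 bases each, upstream of the gene start: Cdc20 at chr4:118437353-118437502 (minus strand), Ube2c at chr2:164769748-164769897 (plus strand), Cdk1 at chr10:69352939-69353088 (minus strand) and Aurka at chr2:172370571-172370720 (minus strand). Capitals mark CCAAT or its reverse complement ATTGG, and TTTGAA, the core of the cell cycle homology region.
Cdc20: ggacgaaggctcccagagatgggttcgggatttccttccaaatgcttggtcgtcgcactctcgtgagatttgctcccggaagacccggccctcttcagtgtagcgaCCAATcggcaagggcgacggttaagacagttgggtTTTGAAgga
Ube2c: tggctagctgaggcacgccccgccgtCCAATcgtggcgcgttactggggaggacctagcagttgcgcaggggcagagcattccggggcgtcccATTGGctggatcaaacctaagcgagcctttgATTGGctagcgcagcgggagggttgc
Cdk1: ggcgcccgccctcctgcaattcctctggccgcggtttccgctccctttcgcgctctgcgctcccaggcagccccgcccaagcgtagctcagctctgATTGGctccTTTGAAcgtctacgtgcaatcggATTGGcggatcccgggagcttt
Aurka: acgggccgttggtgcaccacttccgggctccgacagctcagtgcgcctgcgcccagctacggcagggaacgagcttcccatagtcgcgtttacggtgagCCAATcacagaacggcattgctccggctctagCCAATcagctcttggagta
Cdc20 has its CCAAT 53 bases and its TTTGAA 18 bases before the RefSeq start, Ube2c has 1 CCAAT box on its own strand and 2 on the opposite strand, Cdk1 has 2 on the opposite strand, and Aurka has 2 on its own strand. The printed bases of Cdc20 run from 159 to 10 bases before that start, those of Ube2c from 181 to 32 and those of Cdk1 from 176 to 27. No 2 of the marked matches overlap. In the 250 bases upstream of the start, searched on both strands, CCAAT occurred in 12 of the 15 promoters found among the 21 genes that rose (80%) and in 33.8% of all 32851 promoters. TTTGAA occurred in 5 of the 15 (33.3%) and in 16% of all. Over all tested genes of the list, those that did not rise included, CCAAT occurred in 17 of 22 promoters (77.3%) and TTTGAA in 8 of 22 (36.4%). A match of letters is a description and not evidence of binding.

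Genes of DNA replication rose less and in smaller number. Of 32 tested genes 12 rose and 1 fell (median 0.25), against 12.9% and 5.45% of all tested genes. Dut, which keeps uracil out of DNA, measured 7.85 and 8.22 FPKM at 12 h and 13.1 and 12.8 FPKM at 24 h (0.66 ± 0.07, adjusted p = 0.00318). Tk1, thymidine kinase, showed 0.73 ± 0.11, Tyms, thymidylate synthase, 0.62 ± 0.10, and Mcm6, part of the helicase that opens DNA for replication, 0.47 ± 0.07 (adjusted p = 0.00849, 0.0100 and 0.00862). The transcription factor gene E2f2 was the exception, at 2.92 and 2.46 FPKM at 12 h and 0.853 and 0.669 FPKM at 24 h (-1.34 ± 0.16, adjusted p = 0.00444), and its 2 times did not overlap. Under median-ratio scaling 6 of these genes rose, and without 1 of the MPC EV libraries 1 to 4. None of the 11 tested replication-dependent histone genes passed (median -0.42).

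Genes of cell cycle exit and of the p53 response moved in both directions: of 26 tested genes 9 rose and 5 fell (median 0.19), against 12.9% and 5.45% of all tested genes. In fits that left out 1 of the MPC EV libraries 2 to 4 rose and 4 fell. Cdkn1c, which encodes the cyclin-dependent kinase inhibitor p57 of differentiating muscle, measured 231 and 214 FPKM at 12 h and 82.7 and 65.5 FPKM at 24 h, and its mean was 3.0-fold higher at 12 h (-1.59 ± 0.13, adjusted p = 0.00160). Ccnd3, cyclin D3, which myotubes keep, went from 101 and 97.3 to 49.9 and 49.0 FPKM (-1.0 ± 0.06, adjusted p = 0.000879). Both genes were low in both 24 h libraries. Cdkn1a, the inhibitor p21, was the most abundant member and fell slightly, from 1344 and 1349 to 1061 and 1109 FPKM (-0.31 ± 0.08, adjusted p = 0.0434). That call was lost in 10 of 21 alternatives. Each fit without 1 of the MPC EV or control 24 h libraries was among them, as were a lower filter and no filter. The stress genes Gadd45b and Gadd45g fell by 0.87 ± 0.07 and 0.90 ± 0.09 on the log2 scale. Bax, a promoter of cell death, rose by 0.63 ± 0.07, Mdm2, the ligase that degrades p53, by 0.42 ± 0.05, and Btg1, an antiproliferative gene, by 0.62 ± 0.09 (adjusted p = 0.00313, 0.00453 and 0.00827). Exons of Ccnd3 overlap Bysl on the opposite strand (25.5 FPKM), and the call of Bax was lost once GC content and transcript length were corrected for (adjusted p = 0.324).

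**Figure D3:**
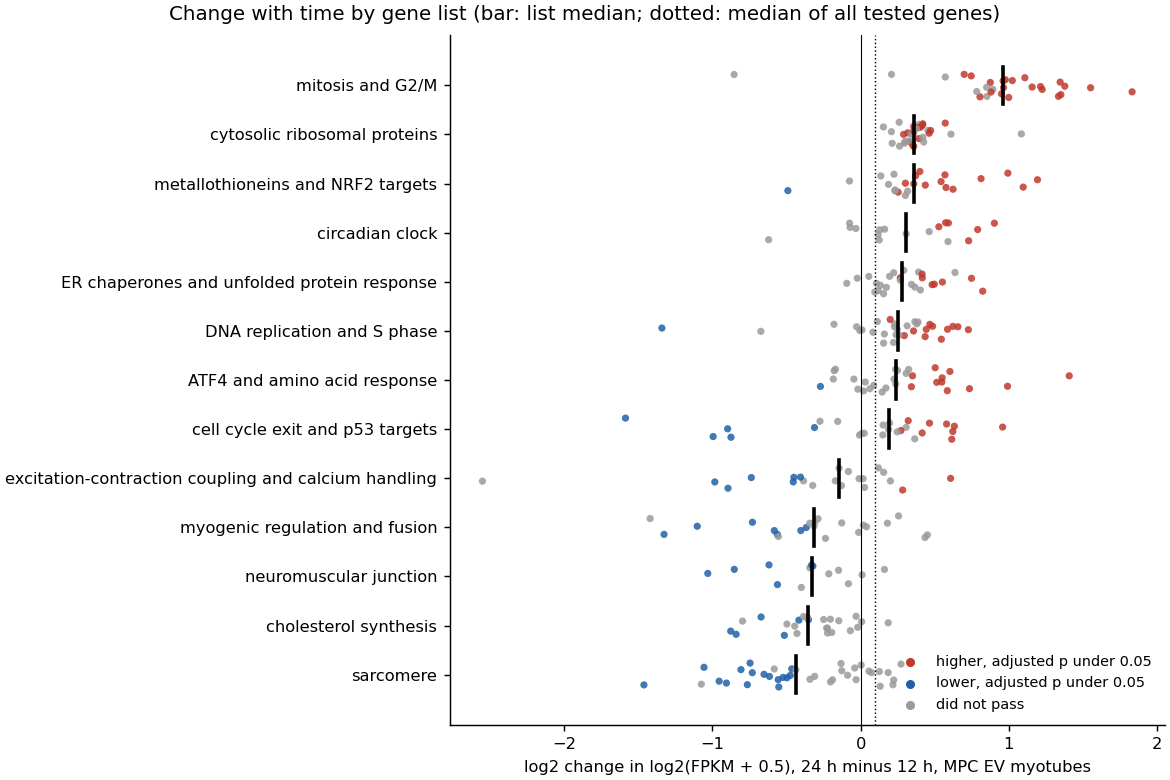
Log2 change, 24 h minus 12 h, of each tested member of 13 gene lists in MPC EV myotubes, with red points higher and blue points lower at an adjusted p under 0.05, grey points not past it, a black bar at the median of the list and a dotted line at the median of all tested genes (0.09). The mitosis list lies farthest to the right (median 0.96) and the sarcomere list farthest to the left (-0.44).

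Most metal-binding and antioxidant genes rose. Of the 23 metallothionein and NRF2 target genes, all tested, 14 rose and 1 fell (median 0.36), against 12.9% and 5.45% of all tested genes. Under median-ratio scaling 10 rose, and after quantile normalization 11. Mt1 and Mt2 encode metallothioneins, small proteins that bind zinc and copper. Mt2 measured 92.6 and 96.1 FPKM at 12 h and 209 and 224 FPKM at 24 h, a 2.29-fold rise (1.19 ± 0.07, adjusted p = 0.000756). Mt1 measured 134 and 135 FPKM at 12 h and 295 and 284 FPKM at 24 h (1.10 ± 0.07, adjusted p = 0.000874). The 2 genes are neighbours with similar sequence, and both were high in both 24 h libraries. Srxn1, sulfiredoxin, showed 0.99 ± 0.11, Nqo1, a quinone reductase, 0.81 ± 0.14, Ftl1, the ferritin light chain, 0.62 ± 0.07, and Hmox1, heme oxygenase 1, 0.54 ± 0.10 (adjusted p = 0.00313, 0.0137, 0.00299 and 0.0180). The secreted glutathione peroxidase Gpx3 was the member that fell (-0.49 ± 0.13, adjusted p = 0.0449), and its call was lost in 10 of 21 alternatives. Without 1 of the MPC EV libraries 4 to 6 genes of the list rose, and with the correction for GC content and length 11 rose, without Ftl1.

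The promoters of the 2 metallothionein genes are shown because metal response elements are known there (RefSeq, GRCm38.p6, plus strand, 150 bases each): Mt1 at chr8:94178932-94179081 and Mt2 at chr8:94172468-94172617. Capitals mark a metal response element core (TGCACNC or TGCGCNC, or the reverse complement) and, in Mt2, an antioxidant response element core (TGACNNNGC).
Mt1: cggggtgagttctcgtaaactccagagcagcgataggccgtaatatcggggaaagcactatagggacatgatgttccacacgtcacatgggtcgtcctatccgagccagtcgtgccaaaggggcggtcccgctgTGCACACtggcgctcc
Mt2: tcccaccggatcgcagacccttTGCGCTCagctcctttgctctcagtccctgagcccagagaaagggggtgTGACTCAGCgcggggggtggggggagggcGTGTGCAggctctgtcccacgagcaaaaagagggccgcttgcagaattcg
In the 250 bases upstream of the start, on both strands, TGCACNC occurred in 2 of the 11 promoters found among the 14 genes of this list that rose (18.2%; 10.4% of all promoters), TGCGCNC in 3 (27.3%; 12.5% of all) and TGACNNNGC in 2 (18.2%; 10.2% of all). Among the 20 promoters found for all tested genes of the list, TGCACNC occurred in 3 (15%), TGCGCNC in 4 (20%) and TGACNNNGC in 6 (30%), so TGACNNNGC was more frequent over the whole list than among the genes that rose.

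Genes of the integrated stress response and of the endoplasmic reticulum (ER) rose in part. Of 29 tested ATF4 and amino acid response genes 11 rose and 1 fell (median 0.24), against 12.9% and 5.45% of all tested genes. Under median-ratio scaling 8 rose, and after quantile normalization 12. Ppp1r15a, the phosphatase subunit GADD34 that restores translation, measured 119.9 and 129 FPKM at 12 h and 348 and 313 FPKM at 24 h, a 2.66-fold rise (1.41 ± 0.14, adjusted p = 0.00242). Ddit3, the transcription factor CHOP, measured 140.4 and 133 FPKM at 12 h and 284 and 260.5 FPKM at 24 h (0.99 ± 0.10, adjusted p = 0.00266), and both genes were high in both 24 h libraries. Atf4 itself did not pass (0.32 ± 0.10, adjusted p = 0.0630), and neither did its target Asns, asparagine synthetase (0.09 ± 0.06, adjusted p = 0.369). For either gene both 24 h libraries lay above both 12 h libraries, as for 46.9% of all tested genes. Exons of Ddit3 overlap Mars (71.1 FPKM), and the list gave 4 to 5 rises without 1 of the MPC EV libraries. Of 26 tested ER chaperone and unfolded protein response genes 8 rose and 0 fell (median 0.28), against the same shares of all tested genes. Under median-ratio scaling 5 rose, and after quantile normalization 7. Hspa5, the ER chaperone BiP, measured 838 and 834 FPKM at 12 h and 1452 and 1360 FPKM at 24 h (0.75 ± 0.07, adjusted p = 0.00253), with both 24 h libraries high. Sdf2l1, a cofactor of BiP, rose by 0.82 ± 0.11, Herpud1, of ER-associated degradation, by 0.48 ± 0.08, and Manf, a secreted ER stress protein, by 0.50 ± 0.09 (adjusted p = 0.00598, 0.0119 and 0.0140). Without 1 of the MPC EV libraries 1 to 3 of the ER genes rose, and without control 12 h replicate 2, 15.

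Of 28 tested genes of muscle atrophy, FOXO and autophagy 7 rose and 2 fell (median 0.16), against 12.9% and 5.45% of all tested genes, and 2 to 3 rose without 1 of the MPC EV libraries. Ctsl, the lysosomal protease cathepsin L, measured 176 and 173 FPKM at 12 h and 346 and 343 FPKM at 24 h, a 1.98-fold rise (0.98 ± 0.05, adjusted p = 0.000751), while Trim63, the atrophy ligase MuRF1, went from 48.0 and 43.5 to 26.3 and 24.9 FPKM (-0.82 ± 0.09, adjusted p = 0.00355). The times did not overlap for either gene. Fbxo32, the atrophy ligase atrogin-1, did not pass (0.07 ± 0.16, adjusted p = 0.796). The autophagy receptor Sqstm1 rose by 0.74 ± 0.08 and Gabarapl1, an autophagosome protein, by 0.65 ± 0.09 (adjusted p = 0.00315 and 0.00793).

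Some genes of the circadian clock, output factors among them, rose. Of 17 tested clock genes 6 rose and 0 fell (median 0.31), against 12.9% and 5.45% of all tested genes. Under median-ratio scaling 5 rose, and after quantile normalization also 5. Nr1d1, the repressor REV-ERBα, measured 3.99 and 3.87 FPKM at 12 h and 7.86 and 7.70 FPKM at 24 h (0.90 ± 0.11, adjusted p = 0.00466). Tef, a PAR bZIP output factor, showed 0.59 ± 0.08, Cry2, a cryptochrome of the negative limb, 0.57 ± 0.09, Ciart, a repressor of the clock, 0.53 ± 0.09, Per2, a period gene, 0.73 ± 0.16 and Dbp, a further output factor, 0.79 ± 0.21 (adjusted p = 0.00530, 0.0111, 0.0130, 0.0261 and 0.0473). Arntl, the core activator BMAL1, went from 5.77 and 5.28 to 5.63 and 4.82 FPKM (-0.07 ± 0.13, adjusted p = 0.736), and its times overlapped. Exons of Nr1d1 overlap Thra (10.98 FPKM) and those of Dbp overlap Sphk2 (17.0 FPKM), and the call of Dbp was lost in 11 of the 20 alternatives that tested it, either other scaling among them. Without 1 of the MPC EV libraries 2 to 3 of the clock genes rose.

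A few cholesterol synthesis genes fell, and most of the rest had lower values at 24 h. Of 25 tested genes 6 fell and 0 rose, against 5.45% and 12.9% of all tested genes, and 23 of the 25 changes were negative (median -0.35). Both 24 h libraries lay below both 12 h libraries for 20 of the 25, against 23.8% of all tested genes. Dhcr7, the last enzyme of the pathway, measured 18.0 and 17.7 FPKM at 12 h and 9.18 and 9.84 FPKM at 24 h, and its mean was 1.88-fold higher at 12 h (-0.88 ± 0.10, adjusted p = 0.00375). The sterol enzymes Hsd17b7, Tm7sf2 and Cyp51 fell by 0.84 ± 0.09, 0.67 ± 0.11 and 0.51 ± 0.10 on the log2 scale (adjusted p = 0.00322, 0.0125 and 0.0167). Leaving out any MPC EV library left 2 falls, and without control 12 h replicate 2, 16.

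Cytosolic ribosomal protein transcripts lay higher at 24 h by a small step that depended on scaling. Of 34 tested genes 17 rose and 0 fell (median 0.36), against 12.9% and 5.45% of all tested genes. All 34 were higher in both 24 h libraries, as were 46.9% of all tested genes. Rpl4 measured 832 and 804 FPKM at 12 h and 1112 and 1075 FPKM at 24 h (0.42 ± 0.07, adjusted p = 0.0140). Under median-ratio scaling 1 gene rose, with the correction for GC content and length 9, and without 1 of the MPC EV libraries 0. As a class, short transcripts of high GC content moved by 0.19. The median of the ribosomal protein genes was 0.36 as reported and 0.26 with the correction for GC content and length. The part of length and GC content in this step was not tested.

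Counts of signalling genes were small and are to be read against the 12.9% of all tested genes that rose and the 5.45% that fell. Of 11 tested Wnt genes 5 fell and 0 rose (median -0.32; 2 fell without any 1 MPC EV library), with the ligand gene Wnt9a at 16.7 and 18.9 FPKM at 12 h and 6.86 and 7.49 FPKM at 24 h (-1.25 ± 0.10, adjusted p = 0.00137) and the receptor gene Fzd2 at -1.26 ± 0.12 (adjusted p = 0.00227). Both were low in both 24 h libraries. Of 25 tested TGF-beta and BMP genes 5 fell and 2 rose (median -0.23; 3 fell without any 1 MPC EV library): Fst, encoding follistatin, the activin and myostatin antagonist, measured 27.0 and 30.1 FPKM at 12 h and 9.46 and 10.1 FPKM at 24 h (-1.49 ± 0.10, adjusted p = 0.00101), and the signal transducer Smad3 fell by 1.05 ± 0.09 (adjusted p = 0.00165). The secreted stress factor Gdf15 rose by 0.59 ± 0.08 (adjusted p = 0.00725). Of 11 tested Notch genes 2 fell and 1 rose, and 1 fell without any 1 MPC EV library. Hes6, which promotes myogenesis, measured 637 and 639 FPKM at 12 h and 353 and 368 FPKM at 24 h (-0.82 ± 0.07, adjusted p = 0.00181), while the Notch target Hey1 rose by 0.89 ± 0.13 (adjusted p = 0.00824). In the IGF system 4 of 16 genes rose and 0 fell (0 to 3 rose without 1 MPC EV library), led by the binding protein gene Igfbp5, at 13.9 and 18.2 FPKM at 12 h and 38.2 and 36.5 FPKM at 24 h (1.20 ± 0.16, adjusted p = 0.00566). Of 23 tested immediate early genes 8 rose and 2 fell (median 0.19), but 0 to 2 rose without 1 MPC EV library, 5 rose and 4 fell under median-ratio scaling, and 4 rose and 4 fell after quantile normalization. The changes were 0.77 ± 0.10 for Nr4a1, 0.67 ± 0.11 for Myc and -1.36 ± 0.25 for Egr3 (adjusted p = 0.00637, 0.0117 and 0.0163).

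Markers of other cells that the culture could hold were followed as lists. Their counts are to be read against the 12.9% of all tested genes that rose and the 5.45% that fell. Of 12 tested progenitor markers 1 rose and 3 fell (median -0.12), and the list, which holds genes that myotubes also express, summed to 2033 and 2056 FPKM at 12 h and to 1720 and 1630 FPKM at 24 h. Of 3 tested Schwann cell markers 1 fell, and their list of 11 summed to 302 and 321 FPKM at 12 h and to 293 and 271 FPKM at 24 h. Most of that sum is the adhesion gene Ncam1, which muscle also expresses, at 235 and 252 FPKM at 12 h and 249.5 and 229 FPKM at 24 h. Of 7 tested fibroblast markers 1 fell, and the list of 15 summed to 73.7 and 80.7 FPKM at 12 h and to 74.2 and 70.9 FPKM at 24 h. Of 7 tested pericyte and smooth muscle markers 4 fell, and their list summed to 1814 and 1738 FPKM at 12 h and to 892 and 788 FPKM at 24 h. Most of that sum is Acta2, the smooth muscle actin that young myotubes also make, at 1661 and 1585 FPKM at 12 h and 767 and 672 FPKM at 24 h (-1.18 ± 0.11, adjusted p = 0.00232). Of the 12 markers in that list 5 lay below the filter, among them Pdgfrb, Rgs5, Myh11, Cnn1 and Kcnj8, which had means of 0.371, 0.214, 0.111, 0.0813 and 0 FPKM at 12 h. The part of such cells in the results was not tested.

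The same comparison in control myotubes, which shares no library with this one, gave changes of the same sign for 1786 of the 2008 genes that passed in MPC EV myotubes, and for 235 of the 239 that changed by more than 2-fold. Control 12 h replicate 2 is part of both counts, and the share of same signs over all 10964 tested genes was not counted. Over the 10964 genes the changes in MPC EV and in control myotubes correlated at a Pearson r of 0.365, and at 0.743 without control 12 h replicate 2, as a description across genes, which are not independent replicates. The difference of the time effects was tested for each gene in the same limma fit. None of the 10964 genes passed (0.0%), the smallest adjusted p was 0.076, and 2005 genes (18.3%) had an unadjusted p under 0.05. The standard error of a difference had a median of 0.16 (log2), against 0.11 for a change in MPC EV myotubes. No change named above is therefore shown to be particular to MPC EV myotubes.

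The smallest p-values of the difference belonged to Gal and Odc1. Gal, the neuropeptide galanin, measured 15.4 and 17.8 FPKM at 12 h and 14.5 and 10.5 FPKM at 24 h in MPC EV myotubes and 48.4 and 47.2 FPKM at 12 h and 4.42 and 4.80 FPKM at 24 h in control myotubes. The log2 change was -3.24 ± 0.16 in control myotubes and -0.41 ± 0.16 in MPC EV myotubes, a difference of 2.83 ± 0.22 (adjusted p = 0.0760). Odc1, ornithine decarboxylase of polyamine synthesis, measured 182 and 195 FPKM at 12 h and 282 and 274 FPKM at 24 h in MPC EV myotubes and 210.3 and 227 FPKM at 12 h and 162 and 157 FPKM at 24 h in control myotubes. The MPC EV libraries were higher at 24 h and the control libraries lower, a difference of 1.01 ± 0.09 (adjusted p = 0.0760). The other 8 genes in this order had an adjusted p of 0.105: Nfkbie, an inhibitor of NF-kB (1.54 ± 0.17), Smco4 (1.07 ± 0.12), Mcm6 (0.86 ± 0.10), Marcksl1 (0.60 ± 0.07), Mcrip2 (0.66 ± 0.08), Dpy30, a histone methylation cofactor (0.83 ± 0.10), Mpc1, a subunit of the mitochondrial pyruvate carrier (-1.14 ± 0.14), and Bcar3 (1.04 ± 0.13). Without control 12 h replicate 2, 3 genes passed, Gal (2.85, adjusted p = 0.0259), Odc1 (0.958, adjusted p = 0.0259) and 1700012B09Rik (1.62, adjusted p = 0.0419).

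**Figure D4:**
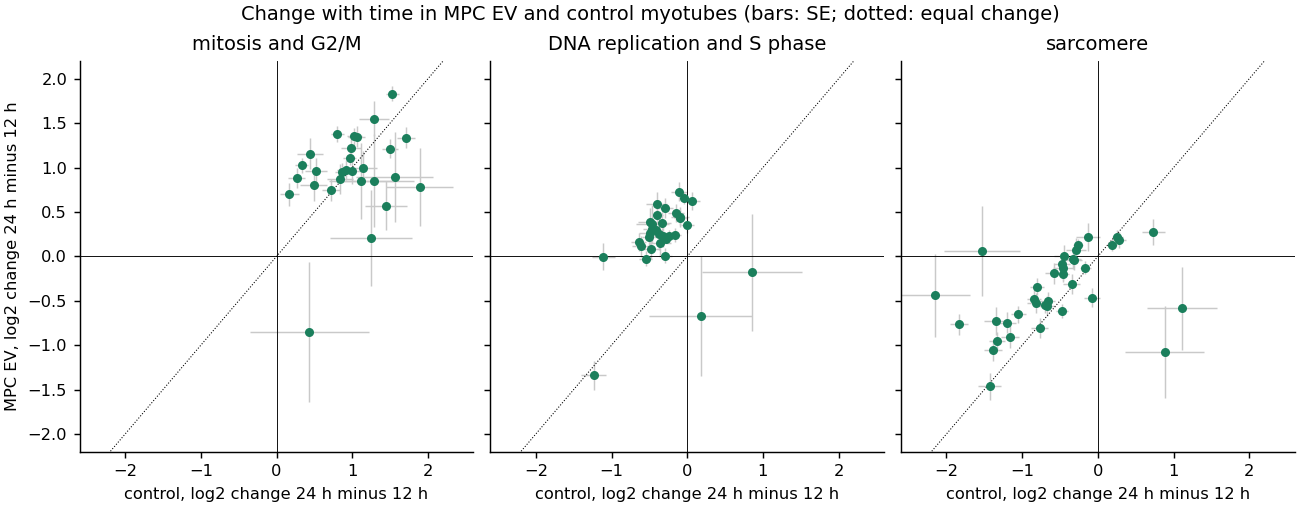
Change with time in control myotubes (x axis) and MPC EV myotubes (y axis) as log2 change, 24 h minus 12 h, for the tested genes of 3 lists, with bars for 1 SE and a dotted line for equal change. Mitosis genes lie to the right of 0 and above it for the most part (medians 0.99 and 0.96), sarcomere genes lie mostly below 0 on both axes (-0.48 and -0.44), and most DNA replication genes lie above the line, negative in control (median -0.35) and positive in MPC EV myotubes (0.25).

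Of the lists, the mitosis genes had a median change of 0.96 with MPC EVs and of 0.99 in control, and the unadjusted p of the difference was under 0.05 for 6 of 28, against 18.3% of all tested genes. The sarcomere genes had medians of -0.44 and -0.48, while the median of their single differences was 0.29, and 14 of 37 had an unadjusted p under 0.05 (smallest adjusted p = 0.118). Without control 12 h replicate 2 there were 12 such sarcomere genes (smallest adjusted p = 0.0544). The DNA replication genes had medians of opposite sign, 0.25 and -0.35. For example, Mcm6 measured 14.6 and 14.0 FPKM at 12 h and 10.7 and 10.9 FPKM at 24 h in control myotubes and 8.63 and 9.15 FPKM at 12 h and 12.5 and 12.4 FPKM at 24 h in MPC EV myotubes, so the MPC EV values started lower and ended higher. The unadjusted p of the difference was under 0.05 for 29 of these 32 genes, against 18.3% of all tested genes, but 0 passed after adjustment (smallest adjusted p = 0.105). Without control 12 h replicate 2 the control median was -0.32, 26 of the 32 had an unadjusted p under 0.05 (18.4% of all tested genes), and 0 passed (smallest adjusted p = 0.0544). The chemokine and cytokine genes, of which 8 were tested, had medians of 0.23 and -0.81, and for 7 of them the unadjusted p of the difference was under 0.05. The same held for 11 of 15 NF-kB response genes (medians 0.08 and -0.41), 13 of 27 genes of ribosome biogenesis and MYC targets (0.20 and -0.04, smallest adjusted p = 0.076) and 11 of 23 immediate early genes (0.19 and 0.00), and none of these genes passed. Ccl2, a chemokine that attracts monocytes, rose from 1.84 and 2.19 to 4.53 and 4.57 FPKM in MPC EV myotubes (1.01 ± 0.23, adjusted p = 0.0322), and control values went from 9.35 and 7.40 to 4.12 and 2.40 FPKM (difference 2.28 ± 0.33, adjusted p = 0.105). The rise of Ccl2 was lost without any 1 of the MPC EV libraries and with no filter. Rrbp1, a ribosome-binding protein of the ER, did not pass over time (0.15 ± 0.10, adjusted p = 0.317) or for the difference (0.09 ± 0.14, adjusted p = 0.689).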

How the data were processed

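RNA of the 4 MPC EV libraries and the 4 control libraries was sequenced from libraries that do not keep strand, per the labels' protocols. The EVs were isolated with a polymer reagent, per the labels' protocols. The authors deposited 1 table of FPKM values of all 8 libraries, and the submitters' processing notes name HISAT2, DESeq2 version 2 and the build mm10, with no role or order. The depth was estimated from the steps between low FPKM values (51.7% to 55.7% of low values were whole within 0.02), and the values were not taken as counts.

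Genes averaging 1 FPKM or more in the 4 MPC EV libraries were kept. The test was that of limma (version 3.58.1, R 4.3.3) on log2(FPKM + 0.5), with all 8 libraries in 4 groups, 4 residual degrees of freedom (prior 2.32), a variance trend, two-sided moderated tests and Benjamini-Hochberg adjustment over all 10964 genes. Fold changes are on this scale, which understates changes of low genes, except folds given as ratios of mean FPKM, and each ± is a standard error. On simulated data for this comparison with 10964 genes, 23.9%, 67.2% and 92.4% of genes changed by 0.5, 1 and 2 (log2) were recovered. For the difference of the time effects the shares were 3%, 43.3% and 86.4%. False calls numbered 8 for the time effect and 7 for the difference. The simulation changed 200 genes, against 2008 called in the data, so its shares cannot be carried over to this comparison.

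Genes were named by rule: the 15 largest rises and falls past the threshold with separate libraries and a mean of at least 2 FPKM, leaving out predicted, clone-named, pseudogene and mitochondrial genes, up to 4 members of each of 46 lists with the smallest adjusted p, the 10 genes with the smallest p of the difference, and Rrbp1. Some genes that the rule names are not reported here. Other genes named were chosen after their values were seen. The lists and comparisons were chosen with earlier results of these data known. Gene coordinates are those of GENCODE on GRCm38. The alternatives were other pseudocounts, filters, scalings and variance models, a fit corrected for GC content and length, fits without each library, of the MPC EV libraries alone, and with the replicate number as a block.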

Additional observations from a re-analysis of the deposited data

How the results depend on the processing

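Of 212 results followed over 21 alternative settings, 82 kept their direction and side of the threshold in each setting that tested them and 116 lost the call in at least 1. Rises numbered 1411 as reported, 766 under median-ratio scaling, 874 after quantile normalization and 2189 in a fit of the 4 MPC EV libraries alone, in which falls numbered 1195. Leaving out 1 library gave 227 to 2759 rises and 202 to 1419 falls: 269 and 218 without MPC EV 12 h replicate 1, 414 and 243 without replicate 2, 227 and 225 without MPC EV 24 h replicate 1, 239 and 202 without replicate 2, 693 and 389 without control 24 h replicate 1, 693 and 388 without replicate 2, 2759 and 1419 without control 12 h replicate 1, and 2714 and 1416 without replicate 2. An arm left with 1 library was assumed to vary like the other groups. For the difference of the time effects the fits without 1 library called 0 to 1953 genes higher and 0 to 1726 lower, the highest counts without control 12 h replicate 1, where the remaining control 12 h library is the one that stands apart. Of the named genes, Fbxo32 changed sign with median-ratio scaling (-0.014), Asns with median-ratio scaling (-0.01) and quantile normalization (-0.008), and Arntl without MPC EV 24 h replicate 2 (0.028, with -0.176 the lowest value without 1 library), and the cause was not tested. No label says that a replicate number marks a shared culture or day, and the main fit used no pairing. The deviations of same-numbered libraries correlated at 0.062 between MPC EV 12 h and 24 h and at -0.619 to 0.231 in other pairs of groups. With 2 libraries in each group, these correlations cannot decide whether the samples were paired. With the replicate block 926 genes rose and 464 fell, and in the 4 MPC EV libraries alone with the block 2280 rose and 1306 fell. Depth limits low genes such as Smim5, which rests on an estimated 12 fragments in each 24 h library, and Ifitm6, with 13 and 12 at 12 h.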

Other observations

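The counts of the following lists in MPC EV myotubes are set against 18.3% of all tested genes called, 12.9% higher and 5.45% lower, and several lie near those shares. Of 23 tested matrix glycoprotein genes 4 rose and 2 fell, with 0 to 2 rises and 0 to 2 falls without 1 of the MPC EV libraries: Islr rose by 0.95 ± 0.15 and Fbln1, encoding fibulin-1 of elastic fibres, by 0.84 ± 0.11, while Nid2, a nidogen of basement membranes, went from 14.8 and 16.3 to 8.52 and 9.28 FPKM (-0.78 ± 0.11; limma adjusted p = 0.00986, 0.00643 and 0.00860). Of 20 tested collagen genes and genes of collagen processing 1 rose and 3 fell, led by the lysyl oxidase relative Loxl1 (-0.67 ± 0.07, adjusted p = 0.00312) and the fibril-associated collagen Col12a1 (-0.52 ± 0.13, adjusted p = 0.0368). Of 17 tested proteases and inhibitors 4 rose and 1 fell, with 0 to 1 rises without 1 of the MPC EV libraries. Mmp19, a matrix metalloproteinase, rose by 0.79 ± 0.14 and Timp1, an inhibitor of these enzymes, fell by 0.63 ± 0.07 on the log2 scale (adjusted p = 0.0162 and 0.00346).

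Genes of fuel use changed in small number. Over all tested genes 12.9% rose and 5.45% fell. Of 26 tested glycolysis and hypoxia genes 3 rose and 4 fell: the glucose transporter gene Slc2a1 measured 26.4 and 28.8 FPKM at 12 h and 58.2 and 55.9 FPKM at 24 h (1.04 ± 0.11, adjusted p = 0.00298), and Ldha, lactate dehydrogenase A, fell by 0.37 ± 0.05 (adjusted p = 0.00761). Of 18 tested fatty acid oxidation genes 4 rose and 1 fell, with 0 to 2 rises without 1 of the MPC EV libraries. Lpl, lipoprotein lipase, measured 0.730 and 0.689 FPKM at 12 h and 1.80 and 1.93 FPKM at 24 h (0.97 ± 0.14, adjusted p = 0.00793), and Pdk4, which restrains pyruvate oxidation, rose by 0.61 ± 0.08 (adjusted p = 0.00552). Of 33 tested nuclear genes of oxidative phosphorylation 3 rose and 0 fell. The 12 tested mitochondrially encoded mRNAs had a median of -0.68 and 0 passed, while in a fit of the 4 MPC EV libraries alone 6 fell and 1 rose. That fit called more genes in all, with 2189 of 10964 higher and 1195 lower. Of 21 tested heat shock and chaperone genes 5 rose and 2 fell, with no rise in any fit without 1 of the MPC EV libraries or under median-ratio scaling, and with Hspa1b, an inducible HSP70 that has a near-identical copy, at 0.90 ± 0.20 and Unc45b, a chaperone of myosin, at -0.47 ± 0.10 (adjusted p = 0.0302 and 0.0224). Among secreted muscle factors Fndc5, the precursor of irisin, measured 54.5 and 53.3 FPKM at 12 h and 24.0 and 21.7 FPKM at 24 h (-1.22 ± 0.08, adjusted p = 0.000951). Of 21 tested vesicle tetraspanin and endosomal sorting genes 1 rose and 2 fell, and the tetraspanin gene Cd82 went from 51.8 and 53.3 to 31.4 and 28.9 FPKM (-0.79 ± 0.07, adjusted p = 0.00165). Of 9 tested interferon and MHC class I genes 1 rose and 0 fell, and of 28 tested proteasome genes 0 rose and 3 fell.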
